A study of Mus musculus with 4 samples.

Results

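The integrated stress response genes examined here were 10 named genes, *Atf4*, *Ddit3*, *Atf3*, *Xbp1*, *Trib3*, *Ppp1r15a*, *Asns*, *Chac1*, *Sesn2* and *Ddit4*, found by symbol among the 28585 genes measured. They were followed in bulk RNA sequencing libraries of PMN-MDSCs, the polymorphonuclear (neutrophil-like) kind of myeloid-derived suppressor cell, which restrains inflammation, from the spleens of mouse pups on postnatal day 7. There were 2 libraries of each genotype, 4 in all. In Dhps cko pups, *Dhps*, the gene of deoxyhypusine synthase, was floxed and removed by Cre driven from *Lysm* (*Lyz2*), a locus active across myeloid cells and not in PMN-MDSCs alone. Dhps flox pups carried the floxed gene without Cre, and the mice had a C57BL/6J background. The study gates PMN-MDSCs as CD11b+ and Ly6G+ cells with low or no Ly6C, and RNA came from 300000 of them. It adds that such a gate may take in polymorphonuclear cells along with PMN-MDSCs. The labels do not say whether a library came from a single pup or a pool, so p-values measure the spread between these libraries only. Levels are given as FPKM, fragments per unit of transcript length relative to all mapped fragments, which allows genes to be compared with each other.

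The integrated stress response is the pathway by which cells lower general protein synthesis under stress. The kinases HRI, PKR, PERK and GCN2 phosphorylate the initiation factor eIF2α, which slows most translation but favours translation of ATF4, and ATF4 in turn activates genes of amino acid supply, redox balance and feedback. Deoxyhypusine synthase is a key enzyme in making the hypusine residue of eIF5A, a factor that keeps ribosomes moving during elongation. The comparison therefore asked whether Dhps cko cells showed the transcript signs of translational stress. Part of the pathway acts through translation, through phosphorylation or, for *Xbp1*, through splicing, and those steps are not measured by gene-level transcripts.

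No difference between genotypes passed the test for the 10 genes (0 of 10 with an adjusted p under 0.05 by limma with Benjamini-Hochberg adjustment over the 17948 genes tested, where 0.00557% of all genes were called), and 0 of 10 had an unadjusted p under 0.05, where 7.0% of all genes did (2.28% lower and 4.72% higher in Dhps cko). Of the 10 fold changes, 5 were above 0 and 5 below, with a median of -0.01 on the log2 scale against 0.01 over all genes tested. The median size of the change was 0.07 for these genes and 0.14 for all genes. Their summed level was 127 and 134 FPKM in the Dhps cko libraries and 133 FPKM in each Dhps flox library.

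**Figure D1:**
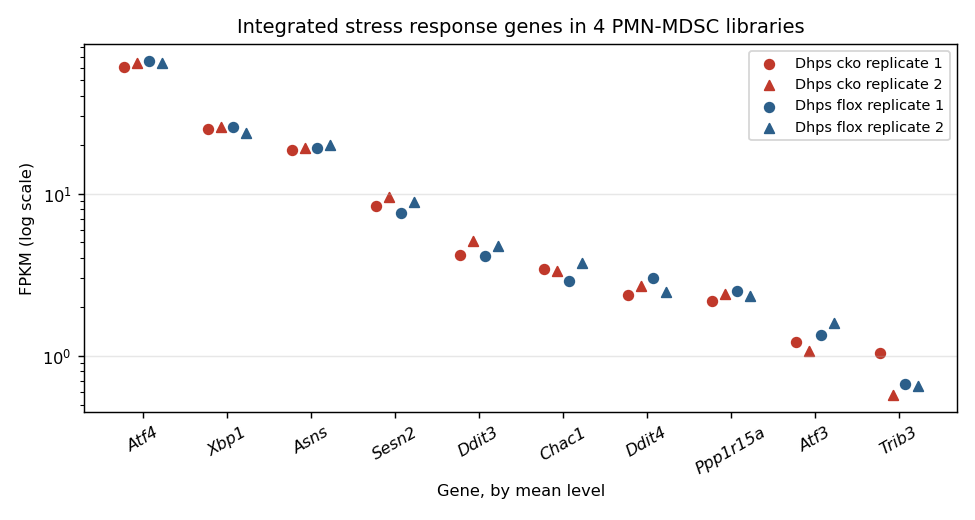
The level of each integrated stress response gene in FPKM (log axis) in the 4 libraries, with genes ordered by mean level and 1 point per library. Red and blue points lie close together for each gene from *Atf4* (mean 63.7 FPKM) to *Atf3* (mean 1.3 FPKM), and the widest spread is that of *Trib3*, between 0.57 and 1.04 FPKM.

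The genes spanned a wide range of abundance. *Atf4* was the highest at a mean of 63.7 FPKM over the 4 libraries, followed by *Xbp1* at 25.2 FPKM, *Asns* at 19.2 FPKM and *Sesn2* at 8.56 FPKM. *Ddit3* (4.54 FPKM), *Chac1* (3.35 FPKM), *Ddit4* (2.65 FPKM), *Ppp1r15a* (2.37 FPKM), *Atf3* (1.3 FPKM) and *Trib3* (0.732 FPKM) followed. Neighbours in this order did not overlap between their 4 libraries, except *Chac1* with *Ddit4* and *Ddit4* with *Ppp1r15a*, whose ranges overlapped.

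Sequence before the transcription start was searched for 3 motifs, using the 250 bases before the RefSeq start (GRCm38.p6) on both strands. All 10 genes had a match in the promoter table. The C/EBP-ATF response element TGATGNAA, the composite element to which ATF4 and C/EBP partners bind, occurred in 3 of the 10 genes (*Asns*, *Atf3* and *Chac1*) and in 3.45% of the 32851 promoters. The palindromic cyclic AMP response element TGACGTCA occurred in *Ppp1r15a* and in 1.55% of all promoters. The ER stress response element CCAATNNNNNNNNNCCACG occurred in 0 of 10 genes and in 0.113% of all promoters. None of the 10 genes held more than 1 of these elements. The matches are shown because these 4 genes are the ones for which a searched motif can be read beside the transcript level. Only these exact letters were searched. The *Atf3* window lies within the annotated span of the gene, so sequence before the far end of that span was not searched. Each is written 5′ to 3′ on the strand of its gene, and capitals mark the match.
*Asns*, chr6:7693214-7693243 (minus strand), match at -23 from the start: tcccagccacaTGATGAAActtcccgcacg
*Atf3*, chr1:191183425-191183454 (minus strand), match at -110: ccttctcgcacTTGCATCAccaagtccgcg
*Chac1*, chr2:119351038-119351067 (plus strand), match at -193: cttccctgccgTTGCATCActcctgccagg
*Ppp1r15a*, chr7:45526269-45526291 (minus strand), match at -12: cgcctctccggTGACGTCAgcac

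The *Atf3* and *Chac1* matches are the same 8 letters, which are the element read on the other strand. The transcripts of the 3 genes with the composite element lay between -0.33 and 0.03 in log2 fold change. A match in these windows is a description of the letters and not of binding.

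The targeted gene was examined first. *Dhps* (chromosome 8, 85071757 to 85075162, GRCm38) was at 2.38 and 2.59 FPKM in Dhps cko and 3.57 and 3.11 FPKM in Dhps flox. Both Dhps cko libraries lay below both Dhps flox libraries, and transcript remained in each, at a Dhps cko mean of 74.4% of the Dhps flox mean. Gene-level FPKM do not separate the deleted part of the gene from the rest. The log2 fold change was -0.41 (SE 0.13) with an adjusted p of 0.629 by limma. Of its exon bases, 5.5% are shared with *Wdr83* on the opposite strand, and whether the counting used strand is not given in the sources used here. In bulk samples, fewer cells of a type and less RNA per cell cannot be told apart.

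Among the regulators, *Atf4*, which encodes the central transcription factor of the pathway, lies on chromosome 15 (80255184 to 80257541, plus strand). It was at 60.24 and 64.14 FPKM in Dhps cko and at 66.16 and 64.26 FPKM in Dhps flox. The genotypes did not overlap, but the nearest libraries differed by little, and the Dhps cko mean was 95.4% of the Dhps flox mean. Its log2 fold change was -0.07 (SE 0.06, 95% confidence interval -0.22 to 0.08). By limma its adjusted p was 0.84, and the interval allowed between 0.858 and 1.06 of the Dhps flox level.

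*Ddit3* encodes CHOP, a C/EBP-family factor induced downstream of ATF4 and linked to cell death under lasting stress. On chromosome 10 (127290774 to 127296288, plus strand), it was at 4.20 and 5.09 FPKM in Dhps cko and at 4.15 and 4.73 FPKM in Dhps flox. The genotypes overlapped, with the highest value in a Dhps cko library and the lowest in a Dhps flox library. On the log2 scale the fold change was 0.06 (SE 0.14, 95% confidence interval -0.29 to 0.41), and it turned to -0.08 without Dhps cko replicate 2 and -0.03 without Dhps flox replicate 1. By limma the adjusted p was 0.96. Of its exon bases, 10.9% are shared with other annotated genes. These are *Gm4189* and *Mars* on the opposite strand and another entry named *Ddit3* on the same strand.

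*Atf3* encodes a stress-induced factor of the ATF family that can repress inflammatory genes, and it lies on chromosome 1 (191170296 to 191218039, minus strand). It was among the genes that the study itself picked on these libraries, so its direction is not independent evidence. It was at 1.21 and 1.07 FPKM in Dhps cko and at 1.34 and 1.59 FPKM in Dhps flox. Both Dhps cko libraries lay below both Dhps flox libraries, and the Dhps cko mean was 77.8% of the Dhps flox mean. Dhps cko against Dhps flox gave a log2 fold change of -0.33 (SE 0.18, 95% confidence interval -0.80 to 0.13), the lowest of the 10 genes. By limma its p was 0.125 before and 0.78 after adjustment, so the difference did not pass the test. The values rest on approximately 66 to 93 fragments per library.

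*Xbp1* encodes a factor that the kinase IRE1 activates by splicing its transcript, and it is needed by secretory cells. On chromosome 11 (5520659 to 5525893, plus strand), it was at 25.24 and 25.93 FPKM in Dhps cko and at 25.63 and 23.81 FPKM in Dhps flox. The genotypes overlapped, and the 4 libraries lay close together. The log2 fold change was 0.05 (SE 0.07, 95% confidence interval -0.12 to 0.22) with an adjusted p of 0.913 by limma, and it was -0.003 without Dhps flox replicate 2. Spliced and unspliced forms were not separated.

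Of the feedback genes, *Trib3* encodes a pseudokinase that binds and restrains ATF4 and AKT (chromosome 2, 152337422 to 152344032, minus strand). It was at 1.04 and 0.57 FPKM in Dhps cko and at 0.67 and 0.65 FPKM in Dhps flox. The Dhps cko libraries lay on both sides of the Dhps flox libraries, with an SD of 0.332 against 0.0141 FPKM (n = 2 each). The log2 fold change of 0.20 (SE 0.32, 95% confidence interval -0.62 to 1.02) depended on single libraries, being -0.18 without Dhps cko replicate 1 and 0.59 without Dhps cko replicate 2. By limma the adjusted p was 0.935. This was the gene with the fewest fragments, approximately 36 to 67 per library, and the upper limit of its interval was 2.03 times the Dhps flox level.

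*Ppp1r15a* encodes GADD34, the inducible subunit that directs protein phosphatase 1 to eIF2α and so restores translation (chromosome 7, 45522916 to 45526268, minus strand). It was at 2.19 and 2.42 FPKM in Dhps cko and at 2.52 and 2.35 FPKM in Dhps flox. The genotypes overlapped. Its log2 fold change was -0.08 (SE 0.13, 95% confidence interval -0.41 to 0.26), and the adjusted p was 0.941 by limma. It was -0.01 without Dhps cko replicate 1 and -0.15 without Dhps cko replicate 2. Its constitutive counterpart *Ppp1r15b*, which does the same at rest, was far more abundant, at 76.06 and 74.33 FPKM in Dhps cko and at 75.99 and 74.19 FPKM in Dhps flox.

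Of the metabolic targets, *Asns* encodes asparagine synthetase, which is raised by ATF4 when amino acids are scarce (chromosome 6, 7675169 to 7693254, minus strand). It was at 18.66 and 19.14 FPKM in Dhps cko and at 19.16 and 20.04 FPKM in Dhps flox. The genotypes were apart by a margin of hundredths of an FPKM, with Dhps cko lower. On the log2 scale the fold change was -0.05 (SE 0.06, 95% confidence interval -0.21 to 0.11) with an adjusted p of 0.903 by limma.

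*Chac1* encodes an enzyme that degrades glutathione and is a sensitive target of ATF4 and CHOP (chromosome 2, 119351229 to 119354381, plus strand). It was at 3.41 and 3.35 FPKM in Dhps cko and at 2.91 and 3.74 FPKM in Dhps flox. Both Dhps cko libraries lay between the Dhps flox libraries. Dhps cko against Dhps flox gave a log2 fold change of 0.03 (SE 0.15, 95% confidence interval -0.36 to 0.42), and it was -0.14 without Dhps flox replicate 1 and 0.21 without Dhps flox replicate 2. By limma the adjusted p was 0.982.

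The remaining genes restrain mTORC1, the kinase complex that promotes growth and protein synthesis. *Sesn2*, which encodes the leucine sensor sestrin 2 (chromosome 4, 132492032 to 132510501, minus strand), was at 8.34 and 9.49 FPKM in Dhps cko and at 7.56 and 8.86 FPKM in Dhps flox. The highest library was a Dhps cko library and the lowest a Dhps flox library, with overlap between them. The log2 fold change was 0.12 (SE 0.12, 95% confidence interval -0.18 to 0.42), with an adjusted p of 0.864 by limma, and it was 0.01 without Dhps flox replicate 1 and 0.23 without Dhps flox replicate 2.

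*Ddit4* encodes REDD1, which acts on mTORC1 through the TSC complex and is also induced by hypoxia and glucocorticoids (chromosome 10, 59949669 to 59951834, minus strand). It was at 2.38 and 2.71 FPKM in Dhps cko and at 3.03 and 2.48 FPKM in Dhps flox. The genotypes overlapped. Its log2 fold change was -0.11 (SE 0.15, 95% confidence interval -0.50 to 0.29), with an adjusted p of 0.926 by limma, and it was 0.03 without Dhps flox replicate 1.

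**Figure D2:**
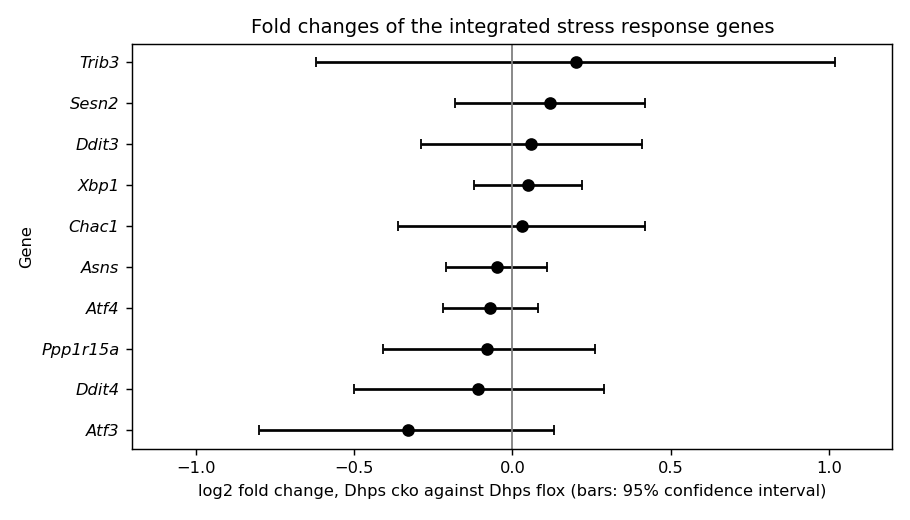
The log2 fold change of each integrated stress response gene in Dhps cko against Dhps flox, with points for the limma estimate and bars for its 95% confidence interval (2 libraries a genotype). All 10 intervals hold 0, and that of *Trib3*, from -0.62 to 1.02, is the widest.

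Across the genes, 3 of 10 (*Atf4*, *Atf3* and *Asns*) were lower in both Dhps cko libraries than in both Dhps flox libraries, where 16.0% of all genes were, and 0 of 10 were higher in both, where 20.0% of all genes were. The remaining 7 overlapped. The intervals bound how large a change the libraries leave possible. For *Atf4*, *Xbp1* and *Asns*, 3 of the 10, the whole interval lay within 0.25 of 0 on the log2 scale. For 9 of 10 the upper limit was under 0.5, the exception being *Trib3*. The highest values of the 10 genes were spread over the libraries, falling in Dhps cko replicate 1 for 1 gene and in each of the other libraries for 3 genes. An exact permutation test of 2 against 2 libraries cannot give a p below 0.333.

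Upstream of these genes, the eIF2α kinases were all expressed. *Eif2ak1*, which encodes the heme-sensitive kinase HRI, was at 18.74 and 18.46 FPKM in Dhps cko and 18.05 and 18.69 FPKM in Dhps flox. *Eif2ak3*, which encodes the ER kinase PERK, was at 12.83 and 13.07 FPKM against 13.78 and 14.11 FPKM, apart and lower in Dhps cko. *Eif2ak2*, which encodes the double-stranded RNA sensor PKR, was at 11.62 and 11.04 FPKM against 10.82 and 9.65 FPKM, apart and higher in Dhps cko. *Eif2ak4*, which encodes the amino acid sensor GCN2, was the scarcest kinase, at 1.27 and 1.13 FPKM against 1.34 and 1.51 FPKM, apart and lower in Dhps cko. With eIF2, eIF2B and their partners, 0 of 16 genes passed the test and 0 had an unadjusted p under 0.05 by limma, and their median log2 fold change was 0.03. Of the 16, 3 were higher and 3 lower in both Dhps cko libraries, against 20.0% and 16.0% of all genes, and 7.0% of all genes had an unadjusted p under 0.05.

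Beyond the 10 genes, 40 other targets of ATF4 and CHOP were listed, of which 35 were tested. By limma 0 had an adjusted p and 0 an unadjusted p under 0.05, where 7.0% of all genes had the latter. Of the 35 fold changes, 22 were above 0, against 52.1% of all genes. Their median was 0.05, and it was 0.08 without Dhps flox replicate 2. The Dhps cko libraries were both higher than the Dhps flox libraries for 10 of the 35 and both lower for 3, where the shares over all genes were 20.0% and 16.0%. Their summed level was 295 and 293 FPKM in Dhps cko and 293 and 299 FPKM in Dhps flox. *Cth*, which encodes an enzyme of cysteine synthesis, had the lowest fold change, -0.22 (SE 0.52), at 0.12 and 0.06 FPKM against 0.20 and 0.06 FPKM. *Gdf15*, which encodes a secreted stress hormone, had the largest fold change, 0.86 (SE 0.56), but was barely detected, at 0.17 and 0.18 FPKM against 0.13 and 0.00 FPKM. *Ero1l*, an ER oxidase gene and the most abundant of the list, was at 62.48 and 61.66 FPKM against 68.73 and 63.88 FPKM. *Atf5*, a paralog of *Atf4* that is itself controlled through eIF2α, was at 5.69 and 5.47 FPKM against 4.69 and 5.12 FPKM, apart and higher in Dhps cko, with a log2 fold change of 0.18 (SE 0.10, 95% confidence interval -0.06 to 0.43).

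The other arms of the unfolded protein response, through IRE1 with XBP1 and through ATF6, gave 29 tested genes with a median log2 fold change of 0.01. *Hspa5*, which encodes the chaperone BiP and is the standard reporter of ER stress, was at 43.52 and 43.16 FPKM in Dhps cko and at 43.11 and 43.24 FPKM in Dhps flox. Its interval was -0.13 to 0.14. *P4hb*, a disulfide isomerase gene and the most abundant of the list, was at 85.24 and 90.25 FPKM against 87.81 and 88.58 FPKM, with overlap. *Dnajb9*, an XBP1 target that encodes a BiP co-chaperone, had the lowest fold change of the list, -0.29 (SE 0.18), at 12.05 and 13.58 FPKM against 18.71 and 13.13 FPKM, with 1 Dhps flox library above the rest. *Sdf2l1*, an ATF6 and XBP1 target, had the highest, 0.37 (SE 0.21). By limma 0 of 29 passed the test, and a single gene reached an unadjusted p under 0.05 (4.72% of all genes did so and were higher), *Pdia4*, a disulfide isomerase gene at 8.86 and 8.16 FPKM against 6.77 and 7.35 FPKM (adjusted p 0.665). That unadjusted call was lost on leaving out any 1 of the 4 libraries. The mitochondrial stress genes, 12 in all, had a median of -0.01. By limma 0 of them were called and 0 had an unadjusted p under 0.05, where 7.0% of all genes did.

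**Figure D3:**
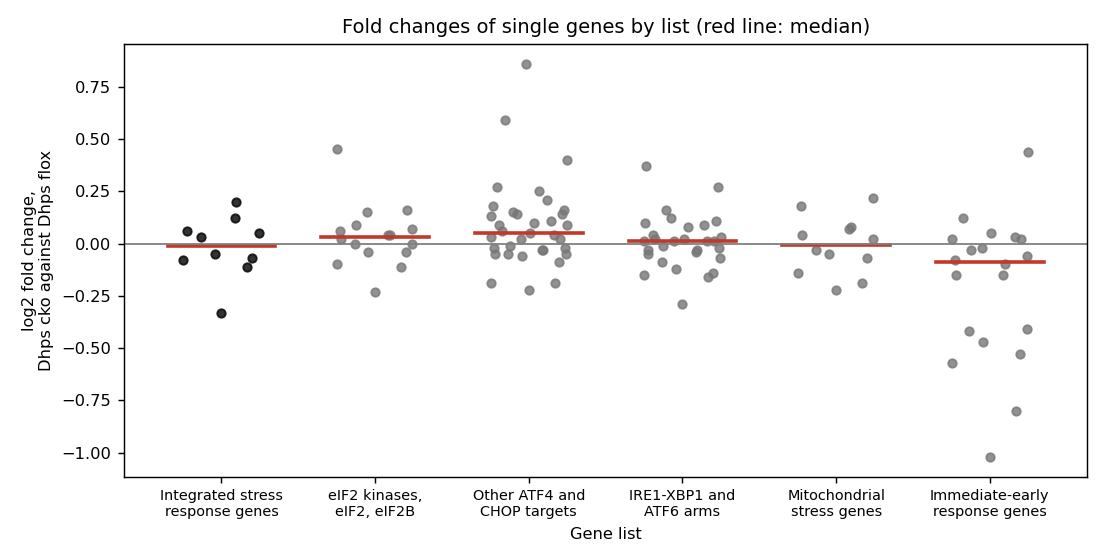
The log2 fold change of single genes (points, Dhps cko against Dhps flox) in 6 gene lists, with the median of each list as a red line. The medians lie between -0.09 for the immediate-early response genes, whose points reach -1.02, and 0.05 for the other ATF4 and CHOP targets.

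Among paralogs of the 10 genes, 12 of 19 fold changes were above 0, with a range of -0.95 to 0.41, and 0 had an adjusted p under 0.05 by limma. An unadjusted p under 0.05 was reached by 2 of 19, *Trib1* and *Cebpe*, where 7.0% of all genes reached it. *Trib1*, a relative of *Trib3* whose product marks C/EBP proteins for degradation in myeloid cells, was at 15.07 and 14.72 FPKM in Dhps cko and at 35.31 and 23.76 FPKM in Dhps flox. Its log2 fold change was -0.95 (SE 0.19), with an adjusted p of 0.488 by limma, while *Trib2* was scarce. *Cebpe*, which encodes a factor of granulocyte maturation related to CHOP, was at 298.10 and 266.12 FPKM against 234.71 and 246.82 FPKM. Among the genes near the sestrins and *Ddit4*, 10 of 16 were above 0, with a median of 0.06, and 1, the p53 target *Ccng1*, had an unadjusted p under 0.05 (log2 fold change 0.24), where 7.0% of all genes did. Of the 16, 6 were higher and 0 lower in both Dhps cko libraries, against 20.0% and 16.0% of all genes, and 0 had an adjusted p under 0.05 by limma.

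*Atf3* is also an immediate-early gene, one that cells switch on within minutes of a stimulus. Of 20 other such genes, 9 were lower and 2 higher in both Dhps cko libraries, where 16.0% and 20.0% of all genes were. Of the 20, 14 fold changes were below 0, and 7 of these reached an unadjusted p under 0.05, against 1 above 0, where 2.28% of all genes were called lower and 4.72% higher. By limma 0 of 20 passed the test after adjustment. *Fosb*, a partner of JUN in the AP-1 factor, was at 6.49 and 6.51 FPKM in Dhps cko and at 15.15 and 11.60 FPKM in Dhps flox. *Dusp1*, a phosphatase gene that limits MAP kinase signalling, was at 42.51 and 43.03 FPKM against 84.27 and 65.88 FPKM. *Fos* was at 102.76 and 97.60 FPKM against 155.88 and 133.96 FPKM. In each the Dhps cko libraries lay below the Dhps flox libraries, as did *Jun*, *Jund*, *Egr1* and *Klf2*, while *Ier3*, at 16.02 and 15.12 FPKM against 10.54 and 12.48 FPKM, lay above. The summed list was at 770 and 769 FPKM in Dhps cko and 927 and 846 FPKM in Dhps flox. Without Dhps cko replicate 2 the number at an unadjusted p under 0.05 and lower was 4 in place of 7. The median of the list, -0.09, was -0.03 without Dhps flox replicate 1 and -0.13 without Dhps cko replicate 1 or Dhps flox replicate 2. The part of this difference in the level of *Atf3* was not tested.

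**Figure D4:**
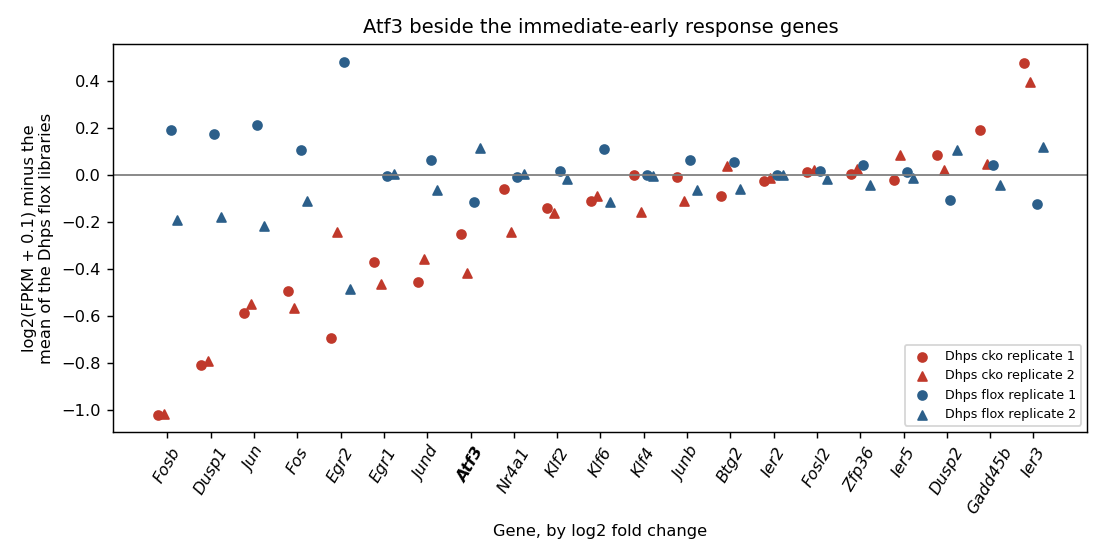
The level of *Atf3* and of 20 immediate-early response genes in each library as log2(FPKM + 0.1) minus the mean of the Dhps flox libraries, with genes ordered by log2 fold change. *Atf3* (-0.33) sits beside *Jund* (-0.41) and *Nr4a1* (-0.15), while *Fosb* (-1.02) is the lowest.

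The libraries were of like depth, approximately 29550000 to 31700000 mapped fragments judged by the spacing of the lowest FPKM values, and each held 10611 to 10729 genes of at least 1 FPKM. The defining markers of neutrophils were abundant, summing to 79700 and 82200 FPKM in Dhps cko and 79500 and 75100 FPKM in Dhps flox. Of the 13, 11 had fold changes above 0 and 5 were higher in both Dhps cko libraries, against 52.1% and 20.0% of all genes. The gate's own marker *Ly6g* was at 222.16 and 241.58 against 194.95 and 184.80 FPKM, with an adjusted p of 0.529 by limma. By limma 0 markers of other cells had an adjusted p under 0.05. Their fold changes were above 0 in a larger share than the 52.1% of all genes. They were above 0 for B cell markers in 8 of 8 genes (67.5 and 70.4 against 43.2 and 52.3 FPKM summed), T cell markers in 8 of 8 (18.2 and 14.9 against 12.3 and 7.88 FPKM) and monocyte and macrophage markers in 10 of 10 (211 and 215 against 173 and 169 FPKM). Both Dhps cko libraries were higher than both Dhps flox libraries for 7 of 8 B cell, 4 of 8 T cell and 8 of 10 monocyte and macrophage markers, against 20.0% of all genes, and an unadjusted p under 0.05 was reached by 6, 2 and 5 of them, where 4.72% of all genes reached it and were higher. Eosinophil markers, above 0 in 8 of 8, summed to 99.5 and 94.6 against 80.9 and 81.8 FPKM. Of these 8, 5 were higher in both Dhps cko libraries, against 20.0% of all genes. By limma 3 were higher at an unadjusted p under 0.05, against 4.72% of all genes. The markers of plasma cells, which hold much XBP1, summed to 5.29 and 5.1 against 3.93 and 3.72 FPKM, with 4 of the 6 tested above 0 and 2 below. The latter were *Prdm1*, at 0.12 and 0.19 against 0.23 and 0.48 FPKM, and *Sdc1*, at 0.49 and 0.40 against 0.69 and 0.46 FPKM, while *Tnfrsf17* and *Derl3* were too low to test. The study used both sexes, and the labels do not give the sex of the pups. The genes *Uty*, *Kdm5d*, *Eif2s3y* and *Ddx3y* of the Y chromosome summed to 7.07 and 8.07 FPKM in Dhps cko and 17.6 and 15.6 FPKM in Dhps flox. The Dhps cko mean of this sum was 45.5% of the Dhps flox mean. Any difference in sex make-up cannot be told apart from genotype here. The part of these markers and Y-linked genes in the levels of the 10 genes was not tested.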

How the data were processed

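The deposited values were FPKM per gene for 4 libraries, calculated by the authors with StringTie from reads trimmed with Cutadapt and aligned with HISAT2 (build mm10, per the submitters' processing notes). The annotation and use of strand are not given in the sources used here. Positions came from GENCODE M21 (GRCm38), which holds 28511 of the identifiers and lacks 74. FPKM are relative to the mapped fragments of each library and carry no read counts, so count tests were not run.

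From the FPKM, log2(FPKM + 0.1) was computed, keeping the 17948 genes whose mean reached 0.1 FPKM, a scale that understates changes of low genes. All 10 genes passed this filter. The comparison of genotypes used limma 3.58.1 (R 4.3.3, eBayes with a mean-variance trend) with Benjamini-Hochberg adjustment over all genes and a threshold of 0.05. The fit was tested on simulated data. Alternatives covered the pseudocount, filter, scaling, variance model, transcript length, replicate block and leaving out each library. Python 3.11.15 with numpy 2.4.6, pandas 2.3.3 and matplotlib 3.10.9 was used for other steps.

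The 10 genes, the marker and pathway lists and the motifs were chosen with earlier results of these data known, and the Y-linked list was added after the fits. The rule for naming genes took all 10 genes, *Dhps*, the lists as counts, and from each list those that passed a test, were most or least abundant, had the largest or smallest fold change or were a paralog, kinase or partner of the 10. The text names some of these. Outside the rule, *Hspa5*, *Ly6g*, *Mt1*, *Nr4a1*, *Prdm1*, *Sdc1* and list genes with only an unadjusted p under 0.05 were named after their values were seen.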

Additional observations from a re-analysis of the deposited data

How the results depend on the processing

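Over 16 refits, the 10 genes gave 159 log2 fold changes, of which 149 kept their direction, 10 reversed and 0 had an adjusted p under 0.05 (smallest 0.564). With a mean of at least 1 FPKM required, *Trib3* was not tested. The reversed values were *Ddit3* at -0.03 and *Chac1* at -0.04 with transcript length correction, alone or with the replicate block, and others on leaving out a library. Leaving out each library gave -0.08 to 0.20 for *Ddit3*, -0.18 to 0.59 for *Trib3*, -0.14 to 0.21 for *Chac1*, -0.003 to 0.10 for *Xbp1* and -0.25 to 0.03 for *Ddit4*. It gave 0.01 to 0.23 for *Sesn2*, -0.15 to -0.01 for *Ppp1r15a*, -0.11 to -0.02 for *Atf4*, -0.08 to -0.02 for *Asns* and -0.45 to -0.22 for *Atf3*, each keeping its sign. The median of the 10 genes was -0.07 without Dhps cko replicate 2 and -0.07 with transcript length correction, alone or with the replicate block. It was -0.05 with a mean of at least 1 FPKM and -0.04 when scaled to TPM. Leaving out each library gave medians of -0.01 to 0.04 for the eIF2 list and -0.01 to 0.01 for the IRE1 and ATF6 arms. For mitochondrial stress genes the range was -0.01 to 0.05. The cause was not tested. The number of all genes called, 1 in the analysis as reported, was 0 with a pseudocount of 0.01, 0 with no filter, 4 with a mean of at least 1 FPKM, 2 with quantile normalization, 2 with robust eBayes, 0 on leaving out each library, and 1257 at an unadjusted p under 0.05. The called gene, *Gm20716*, is no integrated stress response gene. Same-numbered libraries did not deviate together (r = -0.0567 over 10629 genes). With 2 libraries a genotype, this cannot decide whether the numbers pair libraries. With the replicate block 0 genes were called, and also 0 with the length correction added. *Trib3* and *Atf3* rest on the fewest fragments of the 10 genes, approximately 36 to 93 per library, and with 2 libraries a genotype a miss of the threshold does not show that levels are alike.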

Other observations

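Lists of genes induced by glucocorticoids and by hypoxia, signals that also act on *Ddit4*, were read beside it. The glucocorticoid list shares *Dusp1* with the immediate-early list, so the lower value of that gene counts in both. Of 11 glucocorticoid genes, 4 were lower and 2 higher in Dhps cko at an unadjusted p under 0.05, where 2.28% of all genes were lower and 4.72% higher, and 0 had an adjusted p under 0.05 by limma. *Mt2*, which encodes a metallothionein that binds zinc and buffers metals, was at 2.34 and 3.08 FPKM in Dhps cko and at 8.86 and 9.62 FPKM in Dhps flox, and *Mt1* was at 4.24 and 2.65 against 5.88 and 6.03 FPKM. *Cdkn1c*, a cell cycle inhibitor gene, was at 1.88 and 1.38 against 0.91 and 0.72 FPKM.

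Of 12 hypoxia genes, 0 had an adjusted p under 0.05 by limma, and 2 had an unadjusted p under 0.05, both lower in Dhps cko, where 2.28% of all genes were. *Vegfa*, the angiogenic factor gene, was at 13.22 and 12.95 FPKM in Dhps cko and at 14.80 and 15.38 FPKM in Dhps flox, and *Egln3*, an oxygen sensor gene, was at 4.43 and 4.40 against 5.33 and 5.30 FPKM. Of the 9 polyamine and hypusination genes, 7 fold changes were above 0, as were 52.1% of all genes, and *Dhps* alone had an unadjusted p under 0.05, where 2.28% of all genes did and were lower. Primary granule genes of neutrophils summed to 81.2 and 54.5 FPKM in Dhps cko and 46.3 and 56.5 FPKM in Dhps flox, with overlap. Their fold changes were above 0 in 5 of 5 (median 0.55), against 52.1% of all genes. By limma 0 of the 5 had an unadjusted p under 0.05, where 7.0% of all genes did. Erythroid markers summed to 735 and 881 against 608 and 916 FPKM.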
